A study of Mus musculus with 6 samples.

Results

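Keratins are the intermediate filament proteins of epithelial cells, and the keratin and hair shaft genes were read here in RNA from mouse tail tendon, a connective tissue whose own cells are fibroblasts. The members were every gene symbol made of *Krt* and a number, every keratin-associated protein gene (*Krtap*) and *Tchh*, which encodes trichohyalin. The table of 44788 symbols held 105 of them, 51 *Krt* and 53 *Krtap* genes besides *Tchh*, and 77 reached at least 10 counts in any library. Of the remaining 28, 21 had between 1 and 9 counts at most and 7 had none. The fold change was tested for the 59 members that passed a filter on low counts applied to the whole table, among 14550 genes tested.

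The study sequenced RNA from the tail tendons of 3 wild-type (WT) and 3 *Mkx*-/- C57BL/6 mice. *Mkx* encodes Mohawk, a homeobox factor of tendon cells, and the *Mkx*-/- animals carried no other allele or treatment that the labels name. The labels give an age of 3 weeks, whereas the text of the study gives 4 weeks for the mice of this experiment. The tendons were minced whole and lysed, and no sorting of cells is described, so that a library can also hold RNA of tissues around the tendon. Nothing states whether a library came from 1 animal or a pool, and p-values measure only the spread between these libraries.

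In skin, keratins work as pairs of a type I (acidic) and a type II (basic) protein, and each layer of the epidermis and the hair follicle builds its own pair. Basal keratinocytes make *Krt5* with *Krt14*, and differentiating keratinocytes above them switch to *Krt1* with *Krt10*. In the growing hair follicle the outer root sheath uses *Krt6*, *Krt16* and *Krt17*, the inner root sheath uses *Krt25* to *Krt28* with *Krt71* to *Krt74*, and the hair shaft uses hair keratins such as *Krt31* to *Krt36* with *Krt81* to *Krt86*. *Krtap* proteins form the cross-linked matrix between the hair keratin filaments, and trichohyalin hardens the inner root sheath and the medulla. Hair keratin and *Krtap* genes are known for switching on as follicle cells move up from the matrix into the shaft, and the hair cycle turns the whole programme on and off.

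The genes sit in a few clusters, with 27 *Krt* and 22 *Krtap* genes on chromosome 11, 24 *Krt* genes on chromosome 15 and 22 *Krtap* genes on chromosome 16 in the RefSeq annotation. The 100 bases before the RefSeq start of 6 members (build GRCm38.p6, printed 5′ to 3′ on the strand of the gene) are given to show members with and without 1 plain promoter feature near the start. Capitals mark TATAAA, the letters of a TATA box.
*Krtap3-1*, matrix protein, chr11:99566631-99566730, minus strand: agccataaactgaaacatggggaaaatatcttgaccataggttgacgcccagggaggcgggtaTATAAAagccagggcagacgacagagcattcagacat
*Krt34*, hair shaft, chr11:100041555-100041654, minus strand: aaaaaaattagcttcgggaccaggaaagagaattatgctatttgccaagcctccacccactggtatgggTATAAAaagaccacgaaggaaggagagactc
*Krt71*, inner root sheath, chr15:101743098-101743197, minus strand: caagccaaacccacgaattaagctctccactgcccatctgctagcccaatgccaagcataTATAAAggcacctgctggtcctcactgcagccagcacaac
*Tchh*, inner root sheath and medulla, chr3:93442230-93442329, plus strand: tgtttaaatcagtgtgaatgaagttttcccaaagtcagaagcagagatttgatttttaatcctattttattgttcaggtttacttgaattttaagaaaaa
*Krt75*, companion layer of the outer root sheath, chr15:101573905-101574004, minus strand: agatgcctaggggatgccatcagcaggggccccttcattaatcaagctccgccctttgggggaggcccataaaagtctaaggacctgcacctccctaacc
*Krt5*, basal keratinocytes, chr15:101712906-101713005, minus strand: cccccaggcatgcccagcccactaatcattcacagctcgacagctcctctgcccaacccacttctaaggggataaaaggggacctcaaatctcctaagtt
A promoter window was at hand for 84 of the 105 members. TATAAA on the gene's own strand, lying wholly between 40 and 20 bases before the start, was present in 42 of the 84 (50.0%), against 578 of 27025 windows of all genes (2.14%). It was found in 29 of 48 *Krtap* windows (60.4%), 5 of 7 inner root sheath windows (71.4%) and 4 of 9 hair shaft windows (44.4%). Neither of the 2 basal windows and neither of the 2 outer root sheath windows held it there, while 2 of 4 windows of keratins of other stratified epithelia, 1 of 4 suprabasal and 1 of 4 simple epithelial windows did. CTTTGA, the core letters of the LEF1 motif, was searched on both strands over the 250 bases before the start, and was present in 21 of 84 member windows (25.0%), 5 of 9 hair shaft windows (55.6%), 12 of 48 *Krtap* windows (25.0%), 1 of 7 inner root sheath windows (14.3%) and 3785 of 27025 windows overall (14%). Neither motif contains the other, and a match is a string of letters and not a measured binding site.

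The libraries held between 10835070 and 14160301 counts. *Mkx* itself was at 1825, 1381 and 1685 counts in WT replicates 1, 2 and 3 and at 620, 589 and 491 in *Mkx*-/- replicates 1, 2 and 3, so reads of the gene remained in the knockout. The tendon genes *Col1a1*, *Col1a2* and *Fmod* each had 163066 counts or more in every library. WT replicate 3 was male by its *Ddx3y* and *Xist* counts and the other 5 libraries were female, so that sex is uneven between the groups by 1 library. Values below follow the order of replicates 1, 2 and 3, WT first.

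WT replicate 1 stood apart from all other libraries in these genes. It held 148 counts on the members in all, against 2151 and 3785 in WT replicates 2 and 3 and 3269, 7228 and 12627 in the *Mkx*-/- libraries. As counts per 1000000 counts of the library total (CPM), these came to 11.7, 182 and 267 in WT and 302, 572 and 1140 in *Mkx*-/-. Of the 77 members with at least 10 counts anywhere, 61 were at 0 in WT replicate 1, whereas no other library had more than 1 of them at 0. Among all tested genes, 72 had at most 1 count in WT replicate 1 and at least 5 in each of the other 5 libraries, and 43 of those 72 were members. The non-members among the 72 included *Tchhl1*, *Prr9*, *Gprc5d*, *Padi1*, *Pkp1* and *Gjb2*, which are genes of the hair follicle or epidermis. The same pattern was met for 23 genes in WT replicate 2, 4 in WT replicate 3, 13, 4 and 0 in the *Mkx*-/- libraries, and for no member in any of them. With 3 counts as the limit of a gene with none, WT replicate 1 could not show a member below 0.237 CPM. The tests and medians were therefore also run without this library. In bulk RNA, fewer cells of a type and less RNA per cell cannot be told apart.

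**Figure D1:**
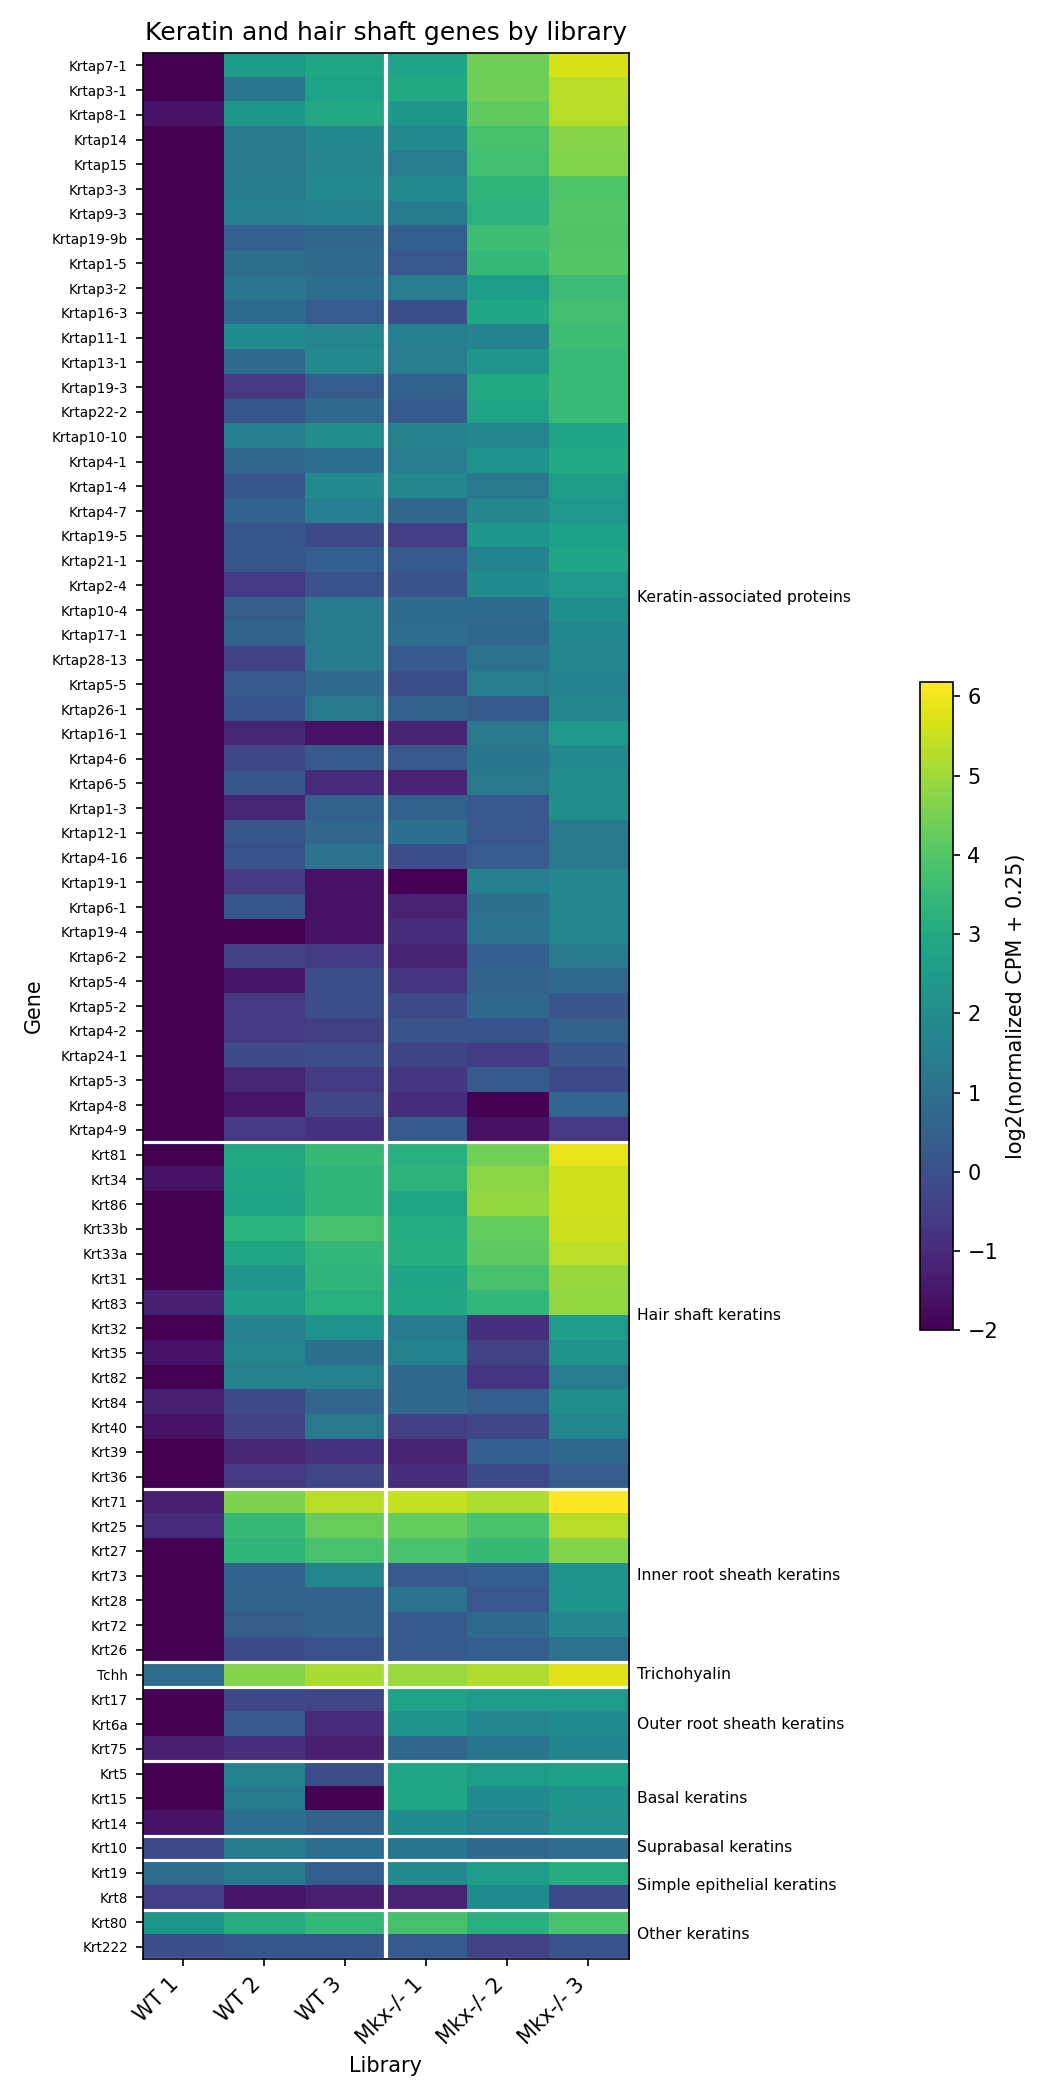
Level of each member with at least 10 counts in any library, as log2 of normalized CPM with a small constant added (colour), for the 6 libraries (columns), with members ordered by the layer they mark (rows). The WT replicate 1 column is dark for 61 of the 77 genes, and 66 of the 77 have their highest count in *Mkx*-/- replicate 3.

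Suprabasal keratins mark the differentiating layers of the epidermis, and those other than *Krt10* were close to absent in every library. *Krt1* had 1, 0 and 0 counts in WT and 6, 1 and 0 in *Mkx*-/-, *Krt2* had 1, 1 and 0 and 6, 0 and 1, and *Krt77* and *Krt78* had at most 1. *Krt10*, the type I partner of *Krt1*, had 8, 24 and 21 counts in WT and 22, 20 and 21 in *Mkx*-/- (log2 fold change 0.14 ± 0.45 SE, adjusted p = 0.896, edgeR quasi-likelihood test). The groups overlapped, and WT replicate 1 alone was low. *Lor*, which encodes the cornified envelope protein loricrin, was at 3, 16 and 3 counts in WT and 4, 1 and 5 in *Mkx*-/-, and *Flg* at 2 or fewer in every library. Other epidermal differentiation genes were present, with *Sbsn* at 120 counts or more and *Krtdap* at 26 or more in every library. *Cdsn* had 4, 25 and 32 counts in WT and 55, 46 and 52 in *Mkx*-/-. The epithelial keratins of other surfaces were low, with *Krt13* of the oral and oesophageal lining at 8 counts or fewer and *Krt4*, *Krt9*, *Krt12* and *Krt76* at 3 or fewer.

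Of the 59 tested members, 4 rose in *Mkx*-/- past an adjusted p of 0.05 and a log2 fold change of 1, namely *Krt17*, *Krt75*, *Krt6a* and *Krt19*, and none fell. Over all genes tested, 275 (1.89%) passed in that direction and 193 (1.33%) in the other. Leaving out WT replicate 1 gave 5 of 71 members upregulated against 321 of all genes (2.16%), with *Krt5* added to the same 4. The filter was applied anew in each such fit, so the members tested differed. The count of 4 became 1 of 70 (*Krt17*) without WT replicate 3, where 0.691% of all genes passed. It became 12 of 70 without *Mkx*-/- replicate 1, where 1.88% passed. These included *Krtap16-1*, *Krtap19-1*, *Krtap19-4* and *Krtap19-5*, which were not among the 59. Without WT replicate 2 the count stayed at 4, of 71 tested (0.79% of all genes), with *Krt15* in and *Krt19* out. It became 2 of 59 (*Krt17* and *Krt75*) without *Mkx*-/- replicate 2 (1.05% of all genes) or without *Mkx*-/- replicate 3 (1.19%). DESeq2 called 6 members, with *Krt14* and *Krtap2-4* added, against 384 of all genes (2.64%). The value in every *Mkx*-/- library lay above that in every WT library for 16 of the 59, against 2131 of all tested genes (14.6%), and below for none, against 1977 (13.6%). The fold change was positive for 58 of the 59 and its unadjusted p was under 0.05, on the higher side, for 28, where all genes gave 49.5% and 12.5%. These counts are descriptions: a member silent in WT replicate 1 passed the filter through the other libraries, members of 1 cell type move together, and near-identical paralogs can share reads. *Krt17* and *Krt75*, at 7 counts or fewer in every WT library, passed the filter only through the *Mkx*-/- libraries, where they were high. *Krt6a* and *Krtap2-4*, at 10 counts or fewer in every WT library, likewise could not have passed it on the WT libraries alone. The median log2 fold change was 1.82 over the 59 and 1.26 without WT replicate 1, where the median of all genes was -0.00 and 0.02.

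**Figure D2:**
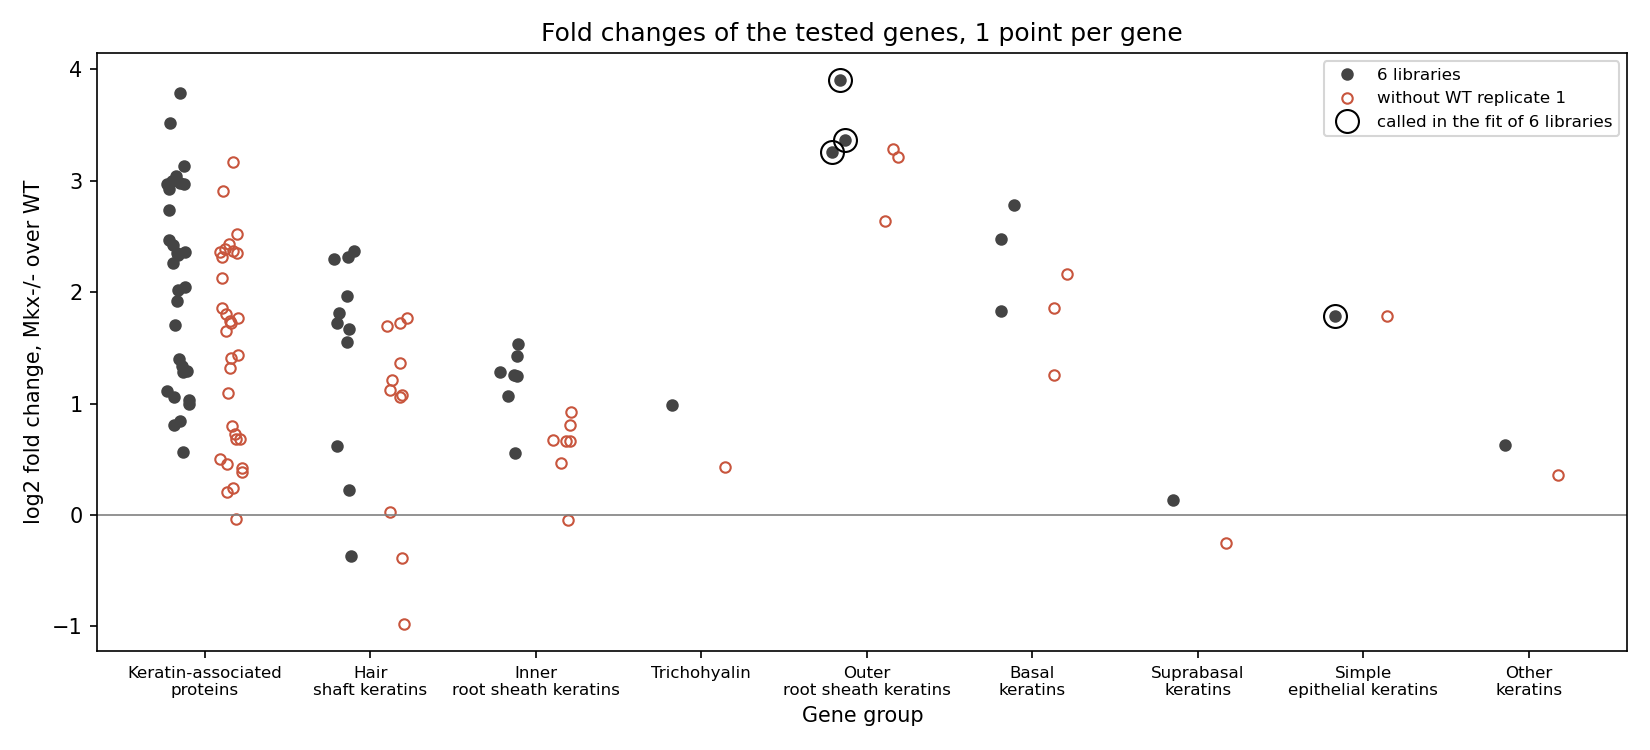
Log2 fold change (*Mkx*-/- against WT, vertical axis) of each tested member by layer, with all 6 libraries (filled) and without WT replicate 1 (open), and rings around the 4 members that passed the test. The 3 outer root sheath keratins all carry a ring, the *Krtap* genes spread from 0.57 to 3.79 with 6 libraries and none carries one.

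*Krt17*, *Krt75* and *Krt6a* make up all 3 tested keratins of the outer root sheath, the multilayered sleeve that joins the follicle to the epidermis. *Krt17*, which is also induced in injured epidermis, had 0, 6 and 7 counts in WT and 69, 78 and 67 in *Mkx*-/-. The groups were far apart, and the *Mkx*-/- libraries lay close together. Normalized to effective library size, *Krt17* (mm9 chr11:100117531-100122343, minus strand) rose from 0.383 ± 0.332 to 5.70 ± 0.540 CPM (SD, n = 3 in each group), a log2 fold change of 3.90 ± 0.56 SE (adjusted p = 0.00863, edgeR) and 3.29 without WT replicate 1 (adjusted p = 0.00109). It passed under each alternative that tested it, with an adjusted p of at most 0.0397.

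*Krt75*, the keratin of the companion layer next to the inner root sheath, had 2, 3 and 2 counts in WT and 15, 29 and 38 in *Mkx*-/-. Its count in WT replicate 1, in contrast to those of most hair genes, was like those in the other WT libraries. Its mean (mm9 chr15:101393776-101404335, minus strand) went from 0.204 ± 0.0783 to 2.14 ± 0.824 CPM (SD, n = 3 in each group). Its log2 fold change was 3.37 ± 0.50 SE (adjusted p = 0.00941, edgeR), 3.22 without WT replicate 1 (adjusted p = 0.0202), and it missed the threshold without WT replicate 3 (adjusted p = 0.0558). *Krt6a*, of the inner cells of the outer root sheath, had 0, 10 and 3 counts in WT and 48, 44 and 46 in *Mkx*-/-. Its log2 fold change (mm9 chr15:101520363-101524738, minus strand) was 3.26 ± 0.70 SE (adjusted p = 0.0359, edgeR) and 2.64 without WT replicate 1 (adjusted p = 0.0214), and it lost the threshold on leaving out WT replicate 3 or any *Mkx*-/- library. *Krt6b* and *Krt16*, of the same layer, and *Krt79*, of its upper part, stayed at 9 counts or fewer. *Krt6a* and *Krt6b* are near-identical, and how reads with several matches were counted was not given in the sources used here.

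The basal keratins were also higher in each *Mkx*-/- library than in any WT library, without passing the test. *Krt5* had 0, 28 and 9 counts in WT and 76, 78 and 75 in *Mkx*-/- (log2 fold change 2.47 ± 0.76 SE, adjusted p = 0.0990, edgeR), and passed it without WT replicate 1 (1.86, adjusted p = 0.0447). *Krt14*, its partner, had 1, 17 and 16 counts and 40, 40 and 52 (1.83 ± 0.62 SE, adjusted p = 0.123, edgeR), with an adjusted p of 0.0373 in DESeq2. *Krt15*, of basal cells and the follicle bulge, had 0, 24 and 0 counts and 77, 51 and 56 (2.79 ± 0.999 SE, adjusted p = 0.143, edgeR), and WT replicate 2 carried all WT counts of this gene. Without WT replicate 2 *Krt15* passed (adjusted p = 0.0165), with a fitted fold change that is no measure of size because both remaining WT libraries were at 0. The 3 together had 1, 69 and 25 counts in WT and 193, 169 and 183 in *Mkx*-/-, even across the *Mkx*-/- libraries.

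**Figure D3:**
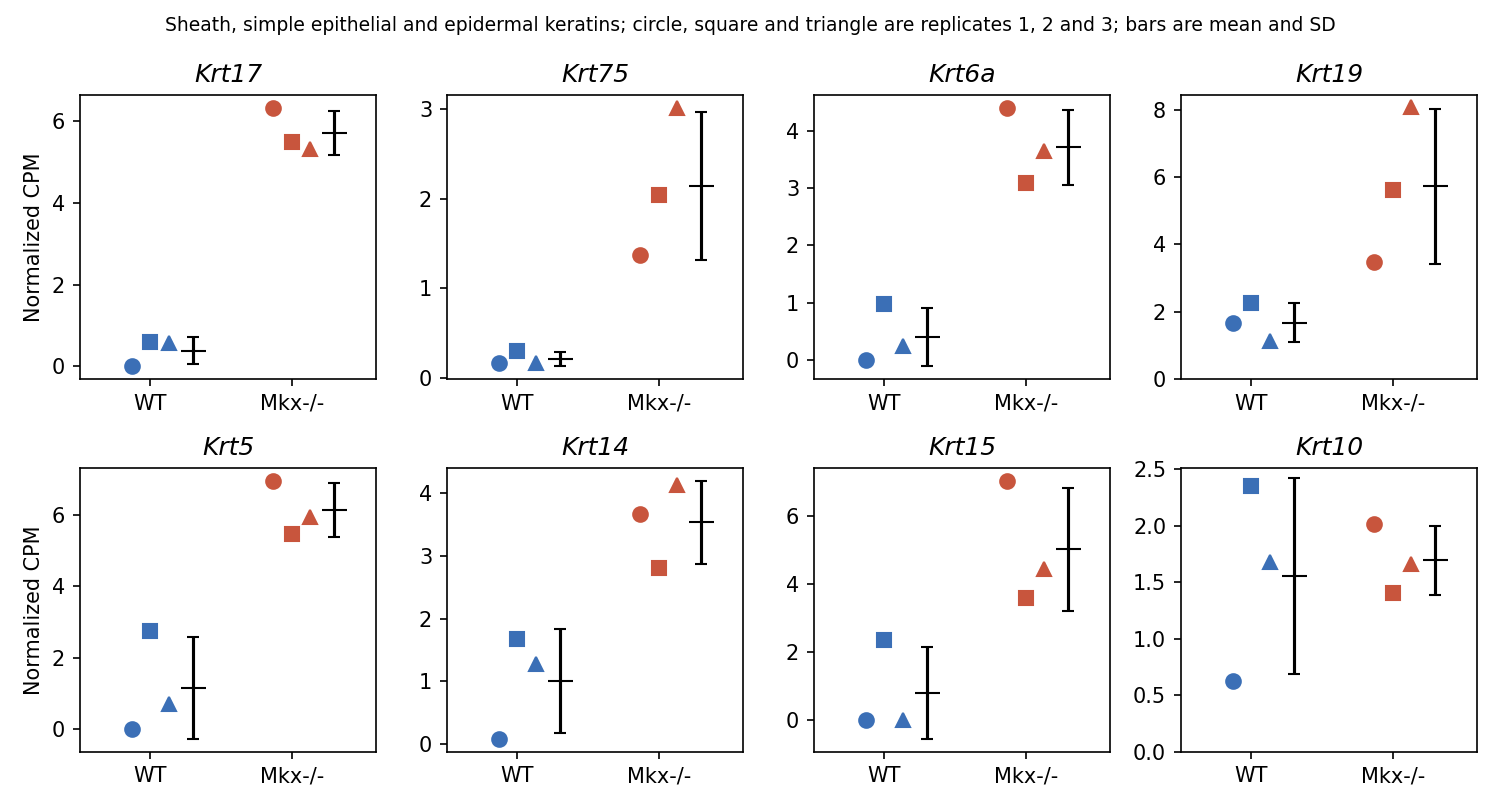
Normalized CPM (vertical axes, from 0 or below) of sheath, simple epithelial and epidermal keratins in WT and *Mkx*-/- libraries, with symbols for replicates 1, 2 and 3 and bars for the mean and SD (n = 3). For *Krt17*, *Krt75*, *Krt6a*, *Krt5*, *Krt14* and *Krt15* the groups do not overlap, and for *Krt10* they do.

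Inner root sheath keratins, which shape the hair while it grows, were present in 5 libraries and did not pass the test in any gene. *Krt71* had 2, 246 and 492 counts in WT and 477, 509 and 912 in *Mkx*-/- (log2 fold change 1.25 ± 0.94 SE, adjusted p = 0.479, edgeR), with *Mkx*-/- replicates 1 and 2 beside WT replicate 3. *Krt25* had 3, 110 and 239 counts and 203, 197 and 494 (1.25), and *Krt27* had 0, 102 and 175 and 154, 154 and 318 (1.07). The other tested keratins of this layer were lower in count: *Krt28* (0, 13 and 15 against 20, 13 and 55), *Krt72* (0, 11 and 16 against 11, 21 and 40), *Krt73* (0, 13 and 39 against 11, 16 and 55) and *Krt26* (0, 7 and 10 against 11, 16 and 23). *Krt74* stayed at 3 counts or fewer. In the whole layer 7 of 7 tested genes had a positive fold change, with a median log2 value of 1.25 that came to 0.66 without WT replicate 1. *Tchh*, with 21, 256 and 442 counts in WT and 335, 520 and 700 in *Mkx*-/-, was the member of the hair groups with most counts in WT replicate 1 (log2 fold change 0.98 ± 0.74 SE, adjusted p = 0.479, and 0.43 without that library).

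For 7 of the 11 tested hair shaft keratins, *Mkx*-/- replicates 2 and 3 were the 2 highest libraries. *Krt81* had 0, 75 and 135 counts in WT and 93, 305 and 743 in *Mkx*-/- (log2 fold change 2.30 ± 0.98 SE, adjusted p = 0.210, edgeR). *Krt34* had 1, 72 and 124 counts and 105, 383 and 603 (2.32), and *Krt86* had 0, 64 and 125 and 73, 406 and 609 (2.37). In each of these genes *Mkx*-/- replicate 1 fell inside the WT range, and this held for 10 of the 11 tested hair shaft keratins. The low end of that range was WT replicate 1, at 2 counts or fewer, so being inside it meant only not exceeding the highest WT library. *Krt33b* (0, 92 and 169 counts in WT, 89, 268 and 594 in *Mkx*-/-), *Krt33a* (0, 69 and 131, then 91, 249 and 522) and *Krt31* (0, 47 and 121, then 72, 195 and 378) likewise had their 2 highest counts in *Mkx*-/- replicates 2 and 3. *Krt83* (2, 58 and 109, then 77, 149 and 359) did as well, and *Krt84* (2, 7 and 17, then 16, 16 and 50) was highest in *Mkx*-/- replicate 3. Reads of *Krt81*, *Krt83* and *Krt86*, and of *Krt33a* and *Krt33b*, may be split between these near-identical copies, so their separate values are uncertain. The median log2 fold change over the 11 was 1.72 and 1.12 without WT replicate 1, and no gene of the group passed the test.

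*Krt35*, *Krt32* and *Krt82*, hair keratins of the matrix and the cuticle, went another way in 1 library. *Krt35* had 32 and 22 counts in WT replicates 2 and 3 and 30, 7 and 54 in *Mkx*-/-, *Krt32* had 29 and 53 and then 25, 4 and 72, and *Krt82* had 28 and 35 and then 16, 5 and 31. *Mkx*-/- replicate 2 thus held the lowest count of each apart from WT replicate 1, although its cortex keratins (*Krt31*, *Krt33a*, *Krt33b*, *Krt34*, *Krt81*, *Krt83* and *Krt86*, grouped after the values were seen) summed to 1955 counts against 477 and 914 in WT replicates 2 and 3, 600 in *Mkx*-/- replicate 1 and 3808 in *Mkx*-/- replicate 3. The matrix and cuticle keratins came to 0.187 and 0.120 of the cortex counts in WT replicates 2 and 3, and to 0.118, 0.00818 and 0.0412 in *Mkx*-/-. The log2 fold changes of *Krt35*, *Krt32* and *Krt82* were 0.61, 0.22 and -0.37, each smaller than its SE (0.91, 1.08 and 0.98).

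The *Krtap* genes, which encode the matrix that packs hair keratin filaments, had the highest counts of any layer in *Mkx*-/- replicates 2 and 3, but not in the other libraries. Together they held 1, 565 and 1044 counts in WT and 778, 3111 and 5239 in *Mkx*-/-, or 0.0788, 55.5 and 83.6 and 71.3, 219 and 415 normalized CPM. *Mkx*-/- replicate 1 thus lay between the WT libraries, and *Mkx*-/- replicates 2 and 3 above all others. All 31 tested *Krtap* genes had a positive log2 fold change, from 0.57 to 3.79 with a median of 2.26 (1.65 without WT replicate 1), and none passed the test. In 22 of the 31 *Mkx*-/- replicate 1 was inside the WT range, whose low end was WT replicate 1 at 1 count or fewer. In 21 *Mkx*-/- replicates 2 and 3 were the 2 highest libraries. In 8 the groups did not overlap, with *Mkx*-/- higher, against 14.6% of all tested genes. No share over all genes was taken for the counts of 22 and 21. Of the 44 *Krtap* genes with at least 10 counts in a library, 43 were at 0 in WT replicate 1 and *Krtap8-1* had 1 count there.

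The *Krtap* genes with the lowest adjusted p were *Krtap19-3*, *Krtap19-9b* and *Krtap2-4*. *Krtap19-3*, of the glycine- and tyrosine-rich genes, had 0, 4 and 13 counts in WT and 13, 109 and 142 in *Mkx*-/- (log2 fold change 3.79 ± 0.96 SE, adjusted p = 0.0599, edgeR). *Krtap19-9b* had 0, 12 and 17 counts and 12, 173 and 194 (3.52, adjusted p = 0.0819), and *Krtap2-4* had 0, 4 and 10 and 9, 52 and 63 (2.98, adjusted p = 0.0858 in edgeR and 0.00507 in DESeq2). The *Krtap19* genes summed to 0, 29 and 40 counts in WT and 33, 413 and 489 in *Mkx*-/-, the *Krtap16* genes to 0, 18 and 14 and 10, 134 and 226, and the *Krtap6* genes to 0, 23 and 9 and 6, 73 and 117. These 3 families, summed after their values were seen, had 70 and 63 counts in WT replicates 2 and 3 and 49 in *Mkx*-/- replicate 1, and 620 and 832 in the other two *Mkx*-/- libraries. Of their genes that were not tested, *Krtap19-1* had at most 4 counts outside *Mkx*-/- replicates 2 and 3 and 38 and 40 in them, and *Krtap16-1* had at most 2 and then 31 and 64.

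*Krtap3-1*, of the high-sulphur genes of chromosome 11, had 0, 21 and 81 counts in WT and 82, 298 and 510 in *Mkx*-/- (log2 fold change 3.00, adjusted p = 0.0993, edgeR), so that its groups were apart by 1 count before scaling. *Krtap7-1* had 0, 54 and 84 counts and 72, 301 and 651 (2.74), *Krtap8-1* had 1, 49 and 92 and 52, 257 and 500 (2.36), *Krtap14* had 0, 22 and 41 and 37, 196 and 321 (2.98), and *Krtap15* had 0, 22 and 40 and 27, 183 and 317 (2.93). By contrast, the *Krtap10* genes, of the hair cuticle, summed to 0, 37 and 78 counts in WT and 47, 68 and 135 in *Mkx*-/-, and *Krtap17-1*, likewise of the cuticle, had 0, 13 and 29 and 18, 20 and 41 (0.81). In *Mkx*-/- replicate 2 the counts of both were inside the WT range. This did not hold for every family of low counts. The *Krtap5* genes summed to 0, 19 and 42 counts in WT and 24, 90 and 82 in *Mkx*-/-, above the WT range in *Mkx*-/- replicate 2. The *Krtap* genes of chromosome 16 held 1, 302 and 469 counts in WT and 332, 1787 and 3139 in *Mkx*-/-, and those of chromosome 11 held 0, 193 and 409 and 345, 1127 and 1816. Chromosomes are those of RefSeq, which puts *Krtap16-1* on chromosome 11 where the mm9 annotation puts the symbol on chromosome 16, so that its reads (64 counts at most) may belong to either sum.

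The remaining tested *Krtap* genes had the following log2 fold changes, none past the test. Values of 2 and above were found for *Krtap1-5* (3.13), *Krtap16-3* (3.05), *Krtap22-2* (2.97), *Krtap3-2* (2.47), *Krtap21-1* (2.42), *Krtap3-3* (2.35), *Krtap9-3* (2.33), *Krtap4-1* (2.26), *Krtap1-3* (2.04) and *Krtap4-6* (2.02). Lower values were found for *Krtap13-1* (1.92), *Krtap4-2* (1.71), *Krtap11-1* (1.40), *Krtap1-4* (1.33), *Krtap4-7* (1.29), *Krtap5-5* (1.29), *Krtap12-1* (1.11), *Krtap28-13* (1.06), *Krtap10-4* (1.03), *Krtap10-10* (0.99), *Krtap26-1* (0.85) and *Krtap4-16* (0.57). Among the keratins of the follicle given above by their counts, the log2 fold changes were 1.97 (*Krt33a*), 1.82 (*Krt31*), 1.72 (*Krt33b*), 1.67 (*Krt83*), 1.56 (*Krt84*), 1.54 (*Krt28*), 1.42 (*Krt26*), 1.28 (*Krt72*) and 0.56 (*Krt73*). The 13 *Krtap* genes with at least 10 counts that did not pass the filter belonged to the *Krtap4*, *Krtap5*, *Krtap6*, *Krtap16*, *Krtap19* and *Krtap24* families, and *Krt36*, *Krt39* and *Krt40* of the hair shaft, *Krt8* and *Krt222* were likewise not tested. *Krt40*, of the cuticle, had 1, 5 and 27 counts in WT and 5, 8 and 39 in *Mkx*-/-, and *Krt36* and *Krt39* had 18 at most.

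**Figure D4:**
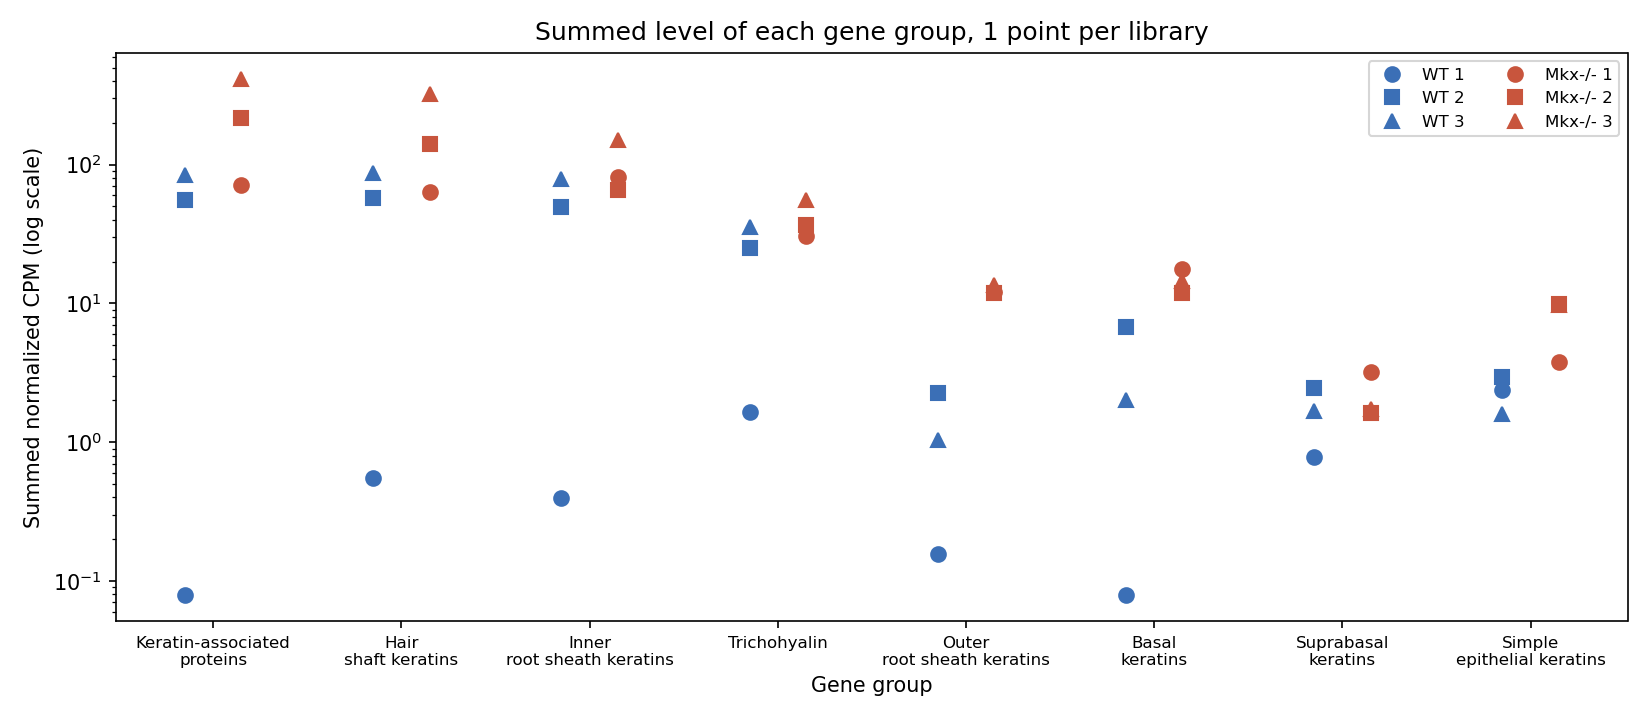
Summed normalized CPM of each layer (log vertical axis) in the 6 libraries, WT and *Mkx*-/- in separate colours and replicates 1, 2 and 3 as symbols. The outer root sheath and basal sums are close in the 3 *Mkx*-/- libraries (11.8 to 13.6 and 11.9 to 17.7), whereas the *Krtap* sum runs from 71.3 to 415 in them.

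The layers therefore differed in how they were spread over the *Mkx*-/- libraries. *Krtap*, hair shaft, inner root sheath and *Tchh* counts together were 34, 1907 and 3551 in WT and 2697, 6578 and 11924 in *Mkx*-/-. The share of *Krtap* genes in that total was 29.6% (95% Wilson interval 27.6 to 31.7) and 29.4% (27.9 to 30.9) in WT replicates 2 and 3, 28.8% (27.2 to 30.6) in *Mkx*-/- replicate 1, 47.3% (46.1 to 48.5) in *Mkx*-/- replicate 2 and 43.9% (43.0 to 44.8) in *Mkx*-/- replicate 3. The intervals cover counting error only, and the shares are of counts not divided by gene length. WT replicate 1 had 1 *Krtap* count among 34 (2.94%), too few to be set beside the others. The *Krtap* share was thus alike in 2 WT libraries and 1 *Mkx*-/- library and higher in 2 *Mkx*-/- libraries, which is a difference between libraries of 1 genotype. Relative to inner root sheath counts, the *Krtap* genes came to 1.13 and 1.06 in WT replicates 2 and 3 and 0.877, 3.36 and 2.76 in *Mkx*-/-, and the hair shaft keratins to 1.16 and 1.09 and to 0.786, 2.18 and 2.15. The outer root sheath keratins, in contrast, came to 0.0458 and 0.0132 of the inner root sheath counts in WT replicates 2 and 3 and to 0.150, 0.181 and 0.0900 in *Mkx*-/-, so that all 3 *Mkx*-/- libraries were above both. These ratios were chosen after the values were seen and carry no test.

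**Figure D5:**
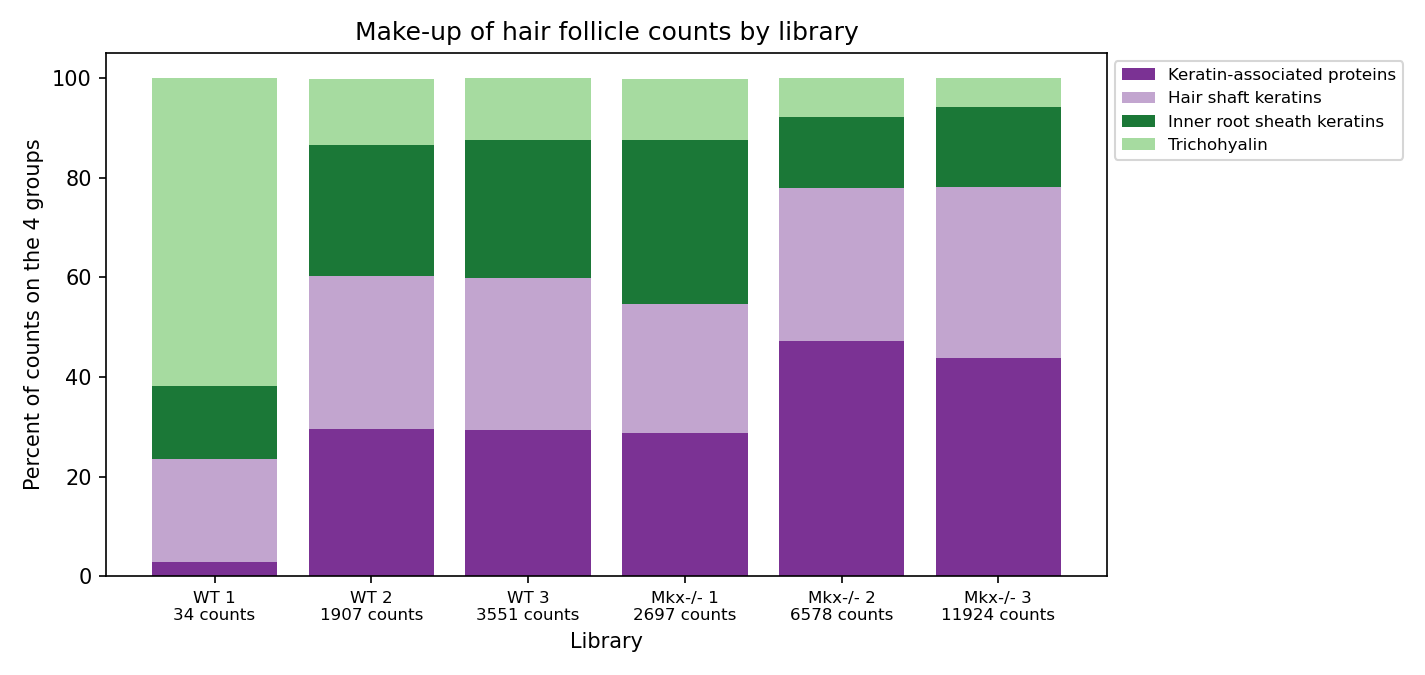
Share of *Krtap*, hair shaft, inner root sheath and *Tchh* counts in their total (vertical axis, percent) in each library, with the total below each bar. *Krtap* genes take 28.8% to 29.6% in WT replicates 2 and 3 and *Mkx*-/- replicate 1 and 43.9% to 47.3% in *Mkx*-/- replicates 2 and 3, and the WT replicate 1 bar rests on 34 counts.

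Epidermal keratins, taken as the basal and suprabasal genes, summed to 11, 94 and 46 counts in WT and 228, 192 and 205 in *Mkx*-/-. *Krt5*, *Krt14* and *Krt15* are basal keratins of the outer root sheath as well as of the epidermis. They held 1, 69 and 25 of these counts in WT and 193, 169 and 183 in *Mkx*-/-, so the sum cannot be read as epidermis alone. Hair follicle keratins, taken as the hair shaft and inner root sheath genes, summed to 12, 1086 and 2065 in WT and 1584, 2947 and 5985 in *Mkx*-/-. Hair follicle counts exceeded epidermal counts in every library, but in WT replicate 1 they were near equal to them (12 against 11, of which 8 were *Krt10*). The ratio of epidermal to hair follicle counts was 0.917, 0.0866 and 0.0223 in WT and 0.144, 0.0652 and 0.0343 in *Mkx*-/-. On the log2 scale with 1 count added to each sum the group means were -3.03 ± 2.70 and -3.86 ± 1.04 (SD, n = 3), a difference of -0.83 that turned to 0.63 without WT replicate 1. The groups overlapped, and an exact test of 3 against 3 libraries could not give a two-sided p below 0.1. Divided by exonic length in mm9, the levels in *Mkx*-/- replicate 3 were 83.2 CPM per kilobase for *Krtap7-1*, 66.9 for *Krtap3-1*, 33.1 for *Krt71*, 31.7 for *Krt81*, 29.7 for *Krt34*, 9.53 for *Tchh*, 2.72 for *Krt5* and 0.795 for *Krt10*.

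*Krt19*, of simple epithelia, the follicle bulge and mesothelium, was the fourth member that rose. It had 21, 23 and 14 counts in WT and 38, 80 and 102 in *Mkx*-/-, and unlike those of the hair genes its count in WT replicate 1 lay between the counts of the other WT libraries. Its mean (mm9 chr11:100002124-100009979, minus strand) went from 1.68 ± 0.568 to 5.73 ± 2.30 CPM (SD, n = 3 in each group), a log2 fold change of 1.79 ± 0.38 SE (adjusted p = 0.0349, edgeR) that was also 1.79 without WT replicate 1 (adjusted p = 0.0482). It lost the threshold when WT replicate 2 or 3 or *Mkx*-/- replicate 2 or 3 was left out, with an adjusted p of at most 0.117. *Krt7*, *Krt18* and *Krt20*, of the same class, stayed at 5 counts or fewer. *Krt8*, the usual partner of *Krt18*, had 6, 1 and 2 counts in WT and 2, 53 and 8 in *Mkx*-/-, so that 53 of its 72 counts lay in *Mkx*-/- replicate 2. The notochord gene *T* had its highest count in the same library (24, 9 and 4 in WT, 2, 75 and 21 in *Mkx*-/-). The other notochord genes read here did not follow it: *Shh*, *Noto*, *Foxa1*, *Foxa2* and *Tekt4* were at 4 counts or fewer in every library. *Cd24a* and *Car12* had their highest counts in WT replicate 3. *Msln*, which encodes mesothelin, rose as well (25, 33 and 24 counts against 58, 83 and 170, log2 fold change 1.80, adjusted p = 0.0443, edgeR), but missed the threshold without WT replicate 1 (1.68, adjusted p = 0.0688), while the other mesothelial genes *Wt1* and *Upk3b* were at 4 counts or fewer and *Upk1b*, *Lrrn4* and *Muc16* at 0. *Krt80*, of many epithelia, had 60, 84 and 132 counts and 148, 128 and 176 (0.63, adjusted p = 0.256), and *Krt222*, a keratin-like gene without a full rod, had between 7 and 11 in every library. *Krt23* reached 9 counts at most.

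Genes of the same tissues outside the keratin family were read beside the members. Of 38 epidermal differentiation and junction genes, 19 were tested, 4 rose and none fell, with a median log2 fold change of 1.03 (0.71 without WT replicate 1). Without that library the same number rose and *Trp63* fell (by 1.24 on the log2 scale, adjusted p = 0.0380, edgeR), as it did in DESeq2 with all 6 libraries (adjusted p = 0.0276). The 4 were *Dmkn* (1, 7 and 9 counts in WT, 28, 45 and 31 in *Mkx*-/-, log2 fold change 2.47), *Perp* (1.81), *Krtdap* (26, 42 and 26 against 85, 133 and 107, 1.65) and *Sbsn* (139, 162 and 120 against 278, 469 and 276, 1.15). The most abundant of the list, *Jup*, *Dst* and *Itgb4*, which serve junctions in many tissues, had log2 fold changes of -0.02, 0.32 and 0.73 and did not pass. Of 25 hair follicle genes, 14 were tested, 2 rose and none fell (median 0.61, and 0.63 without WT replicate 1). These were *Lgr5* (0, 6 and 10 counts against 161, 126 and 198, log2 fold change 4.81, adjusted p = 0.00364, edgeR) and *Lgr6* (9, 18 and 20 against 117, 83 and 118, 2.67, adjusted p = 0.00652), receptors for R-spondin that mark stem cells of the follicle and are found in other tissues. *Lgr5* was high in all 3 *Mkx*-/- libraries (14.7, 8.85 and 15.7 normalized CPM), though less even than *Krt17* (6.32, 5.48 and 5.31). The hair shaft genes *S100a3* (3, 65 and 143 counts in WT, 63, 49 and 183 in *Mkx*-/-) and *Prr9* (0, 47 and 90 against 44, 41 and 102) instead had their WT and *Mkx*-/- values interleaved. *Gprc5d* did not, with 1, 13 and 16 counts against 22, 57 and 86 (log2 fold change 2.31). It missed the threshold in edgeR (adjusted p = 0.0919), and DESeq2 called it higher (adjusted p = 0.00936). *Padi3* (2, 11 and 23 against 19, 37 and 55) and *Tchhl1* (0, 6 and 27 against 29, 23 and 48) had positive fold changes, but their groups overlapped and neither passed. *Lrig1* (0.36), *Wnt10b* (0.57) and *Hoxc13* (0.17), the most abundant of the list, did not pass. Whether skin or hair left on the tendon, or the tendon cells themselves, gave the keratin counts was not tested.

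Markers of other tissues moved with the groups too, and their part in the keratin values was not tested. Of 16 skeletal muscle genes 4 rose (*Casq1*, *Tnnt3*, *Tnni2* and *Tnnc2*), with a median log2 fold change of 2.94, and 13 rose without WT replicate 1 (median 3.49). Their summed normalized levels were 471, 107 and 313 CPM in WT and 3371, 1614 and 641 in *Mkx*-/-. This order was the reverse of that of the *Krtap* genes among the *Mkx*-/- libraries. Of 5 tested blood genes none passed in edgeR and DESeq2 called *Alas2* lower (median -1.76, and -0.42 without WT replicate 1), with WT replicate 1 highest at 452 CPM against 51.8 to 103 in the other libraries. Of 4 tested sebaceous gland genes, *Fa2h*, which myelinating cells also express, rose by 1.03 on the log2 scale, and by 0.98, below the fold threshold, without WT replicate 1. In that smaller fit *Dgat2*, also of this list, fell, and DESeq2 with all 6 libraries called it lower too (adjusted p = 0.00397). Of 2 tested melanocyte genes none passed in edgeR, and DESeq2 called *Sox10* higher. Of 9 tendon genes *Thbs4* rose by 1.26 and none fell (median -0.02), whereas *Scx* fell by 1.49 on the log2 scale without WT replicate 1 (adjusted p = 0.00323, edgeR) and DESeq2 called both *Scx* and *Col1a2* lower. Of 4 tested genes of simple epithelia, *Spint1* rose by 1.41 (median 0.51), a call lost without WT replicate 1 (1.21, adjusted p = 0.0583). Of 3 tested notochord genes *Car12*, which other cells also express, fell by 3.61 on the log2 scale (median -0.70, and -1.06 without WT replicate 1, where *Cd24a* fell too). Of 14 tested intermediate filament genes other than keratins, such as *Vim* and *Lmna*, none rose and *Synm* fell by 1.05 on the log2 scale (median 0.29). Without WT replicate 1, *Des* (3.26, adjusted p = 0.0251) and *Prph* (2.23, adjusted p = 0.0244) rose, and *Des* is itself a filament gene of muscle. Of 10 tested genes for partners of keratin filaments, such as *Plec*, *Dst* and *Jup*, none passed in edgeR (median 1.07, and 0.70 without WT replicate 1), and DESeq2 called *Ppl* higher.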

How the data were processed

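RNA of tail tendons was extracted with Trizol, made into libraries with the Ion Total RNA-Seq Kit v2 and sequenced on an Ion Proton. The authors deposited read counts per gene symbol, with reads aligned to mm9 by MapSplice. The counting program, its use of strand and its treatment of reads with several matches are not given in the sources used here. All 6 columns were mapped to samples, and 0 were left unused. The members and gene lists were chosen with earlier results of these data known.

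Counts were tested as deposited with edgeR 4.0.16 (R 4.3.3) by its quasi-likelihood test on genotype, with TMM scaling and filterByExpr, over 14550 genes. Genes were called where the Benjamini-Hochberg adjusted p was below 0.05 and the fitted log2 change lay beyond 1 or -1. SE was the log2 fold change divided by the square root of F. Fitted fold changes of genes at 0 in a library depend on the prior count of 0.125. The script was tested on simulated data. The study used DESeq2, which was run as an alternative (1.42.0) besides other scalings, filters, a robust fit, the replicate number as a block and leaving out each library. 19011 of 44788 symbols had no count.

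Sums and ratios over layers, cortex and cuticle groups and families are descriptions without a test. Named are all tested members and the 3 with the highest total in each layer. Of each list the called genes are named, and its most abundant genes where they bear on the keratins. Other genes, and the motifs, were chosen after values were seen. Coordinates of genes are from GENCODE in mm9, where 91 of 105 members had a single record, and promoters from RefSeq in GRCm38.p6.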

Additional observations from a re-analysis of the deposited data

How the results depend on the processing

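Of the keratin and hair shaft genes, 4 were upregulated with TMM scaling and 0 downregulated, and no alternative run gave a member as downregulated. The number upregulated was 11 with library size alone as the scale, where the median of all genes shifted to 0.25 and 711 of all genes (4.89%) were upregulated. It was 30 of 98 members tested with a filter of 1 count in any library, where all genes gave 541 up (2.1%) and 322 down (1.25%). It was 1 with a filter of 10 counts in every library, which left 3 members to test (1.6% of all genes passed) because most were at 0 in WT replicate 1. Leaving out each library in turn gave 1 to 12 members upregulated, of 59 to 71 tested. Over all genes it gave 103 to 321 up and 112 to 248 down. The difference in the log2 ratio of epidermal to hair follicle keratins, -0.83, ran from -2.05 to 0.63 over these, positive without WT replicate 1. RLE scaling, upper-quartile scaling and the robust fit kept the same 4 genes. Where no value is given for it, the cause was not tested.

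Leaving out each library turned the sign of 6 log2 fold changes, whose ranges were -0.25 to 0.53 (*Krt10*), -0.93 to 0.98 (*Krt32*), -0.049 to 1.41 (*Krt35*), -0.45 to 1.82 (*Krt73*), -1.06 to 0.11 (*Krt82*) and -0.041 to 1.84 (*Krtap4-16*). No scaling alternative turned a sign among the tested members.

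The deviations of samples with the same replicate number from their group means had correlations of 0.03, -0.21 and 0.30 for numbers 1, 2 and 3. Samples of different numbers were not compared in this way, so these values cannot tell whether the numbers pair the samples. With the replicate block 13 members were upregulated (1.34% of all genes), among them *Krt17*, *Krt75* and 11 *Krtap* genes, and *Krt6a* and *Krt19* were not.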

Other observations

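Some genes of keratinocytes and hair were present in WT replicate 1, the library with nearly no hair keratin counts. *Trp63*, which encodes the factor p63 of basal keratinocytes and some other cells, had 134 counts there while *Krt5* had 0 and *Krt14* had 1, and over all libraries it ran from 134, 174 and 237 in WT to 109, 122 and 56 in *Mkx*-/- (log2 fold change -1.02, adjusted p = 0.102, edgeR quasi-likelihood test, and -1.24, adjusted p = 0.0380, without WT replicate 1), against the direction of *Krt5* and *Krt14*. *Hoxc13*, a homeobox gene of the hair matrix that also belongs to the posterior *Hox* genes, had 86, 82 and 90 counts in WT and 122, 86 and 96 in *Mkx*-/-, and *Wnt10b* had 131, 157 and 175 and 210, 244 and 282, with no lack in WT replicate 1. *Sbsn* and *Krtdap*, secreted proteins of differentiating keratinocytes, had 139 and 26 counts in that library. These genes were picked after their values were seen, and the source of their reads was not tested.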
